A study of Mus musculus with 2 samples.

Results

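Fgf5, Otx2, Pou3f1, Lef1, Cdh2, Zic2, Zic5 and Wnt8a are 8 genes associated with primed pluripotency and the earliest steps of neural and epiblast patterning, and their DNA methylation was compared between XX and XO Xmas mESCs. They were chosen by name, and every CpG cytosine listed from 10 kb upstream of each gene's start to its end was used (GRCm38, GENCODE M21). This gave 1676 of the 1782730 cytosines in the table, 137 of them shared by Zic2 and Zic5, which lie next to each other. The 8 genes are among 20807 autosomal protein-coding genes.

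The Xmas line consists of mouse embryonic stem cells (mESCs), female and of the C57/Bl6 strain, that carry GFP and mCherry reporters under the Hprt promoter on different X chromosomes, and FACS on these reporters sorted XX cells, which carry both, and XO cells, in which 1 X chromosome was lost. Both populations came from cultures grown in 2i/LIF by the modified method, a medium that holds a MEK inhibitor and a GSK3 inhibitor. The labels give 7 passages, whereas the methods of the study give a larger number. Methylation was measured by RRBS (MspI digestion, size selection and bisulfite sequencing, which favours CpG-rich DNA) in 1 XX library and 1 XO library, so the karyotypes have no replicate error and no test was made between them. Values are the percentage of reads at a cytosine that were methylated (%mCpG), given without coverage, and the depth is therefore unknown. RNA was not analysed here, so whether these genes were expressed was not examined.

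Mouse pluripotent cells pass from a naive state, as in the inner cell mass and in 2i/LIF, to a primed state, as in the epiblast after implantation. In this transition naive factors are switched off, Fgf5, Otx2 and Pou3f1 are switched on, and the genome gains DNA methylation through the de novo methyltransferases. Promoters of such developmental regulators usually lie in CpG islands, which stay unmethylated in most tissues, while the CpG-poor introns and flanks around them carry methylation.

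Promoters (the start with 1 kb to each side) of the 8 genes were hardly methylated in either library. The promoter means ran from 3.82% to 8.55% in XX cells and from 0% to 11.2% in XO cells. XX values were lower at 7 of 8 promoters, against 65.8% of all autosomal protein-coding promoters, with a median difference (XX minus XO) of -2.52 percentage points, beside -1.38 points over the 13729 autosomal protein-coding promoters with at least 3 listed CpGs. The members' median was -4.53 points from forward and -0.684 points from reverse cytosines, and -1.22 points with medians over CpGs. It was 3.88 points over sparse CpGs (fewer than 10 within 100 bp, 5 genes), so its sign was not fixed. The count of 7 also depended on the setting. With medians over CpGs, Pou3f1 (1.89 points) and Zic2 (1.59 points) were higher in XX cells too, and Cdh2 was at 0 points. On the reverse strand Fgf5, Otx2 and Cdh2 were higher (2.80, 6.50 and 0.558 points), whereas no gene with at least 3 forward cytosines was higher on that strand. The value over all promoters was not recalculated under these settings. None of the 8 promoters was lower by 10 points or more, as 11.7% of all promoters were, and none was higher by that much, as 1.99% were. The largest fall was at Zic5, and Wnt8a, with 4 listed cytosines, was the gene with a higher value in XX cells.

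Gene bodies, taken from 1 kb after the start to the end, showed larger gaps. XX means were below XO means at all 8, by differences that ran between -18.5 points at Wnt8a and -1.31 points at Zic2, with a median of -8.30 points. Of all autosomal gene bodies, 93.8% were lower in XX cells. Over 13943 autosomal protein-coding gene bodies the median difference was -13.99 points. Wnt8a, Fgf5 and Lef1 were lower by at least 10 points, that is 3 of 8, against 65.1% of all gene bodies. None was higher by 10 points, against 0.775%. The remaining 5 gene bodies had XO means of at most 23.8%, below the median of 43.5% over all gene bodies. The XO means of Fgf5 (37.9%) and Lef1 (35.6%) were also below that median, and that of Wnt8a (48.4%) was above it. Whether the XO level bears on the gap was not tested. When the first 1 kb was counted with the gene body, the median difference was -3.61 points.

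The upstream stretches, from 10 kb to 1 kb before the start, were read unevenly. No CpG was listed there for Otx2, Cdh2 and Wnt8a, and only 4 cytosines for Fgf5 and 3 for Pou3f1. Fgf5 (13.8% in XX and 35.8% in XO cells) and Pou3f1 (11.2% and 23.3%) were lower by at least 10 points, 2 of the 5 genes with values, against 54.3% of 9957 genes. None was higher by 10 points, against 1.62%. At Fgf5 the strands had opposite signs, with -34.2 points over 3 forward cytosines and 14.5 points at 1 reverse cytosine. At Pou3f1 they gave -0.238 points at 1 forward cytosine and -18.1 points over 2 reverse ones. Lef1 (21.3% and 21.95%), Zic2 (20.9% and 24.4%) and Zic5 (10.4% and 9.44%), which rest on more CpGs, had differences of -0.617, -3.54 and 1.01 points in that order. With at least 10 CpGs required, 0 of 3 upstream stretches were lower by 10 points.

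**Figure D1:**
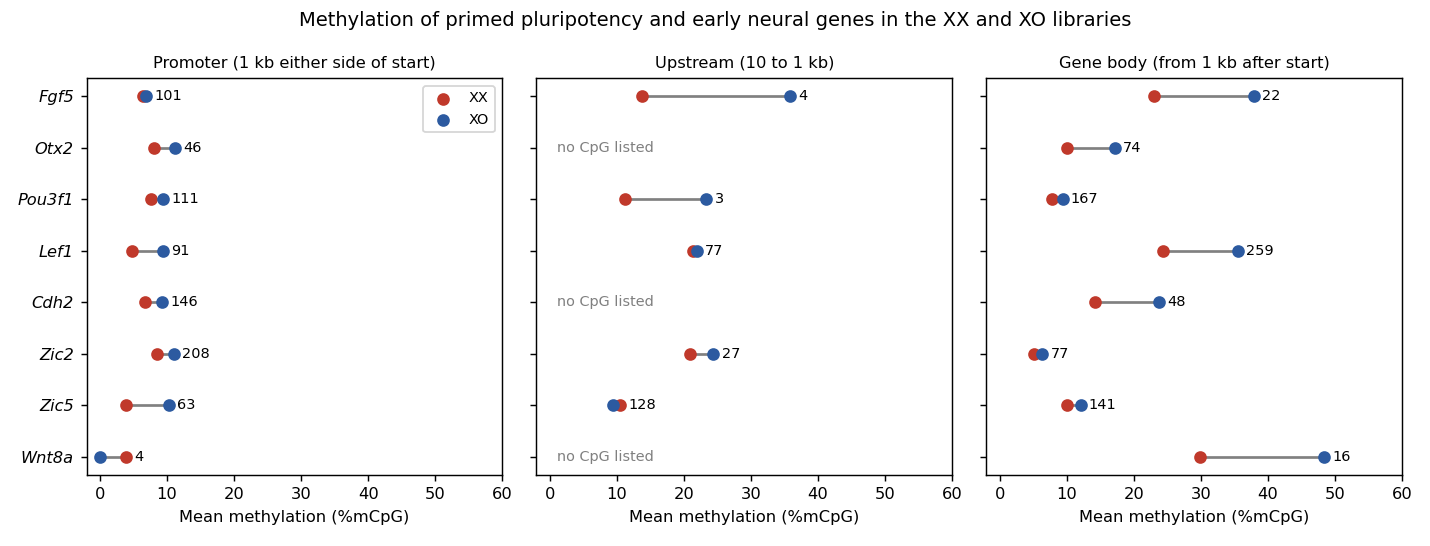
Mean methylation (%mCpG, x axis) of each gene in the XX library (red) and the XO library (blue) at the promoter, the upstream stretch and the gene body, with the number of listed CpG cytosines beside each pair and no error bars because each point is 1 library. Promoter means lie between 0% and 11.2% in both libraries, whereas gene body means reach 29.8% in XX and 48.4% in XO cells at Wnt8a.

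**Figure D2:**
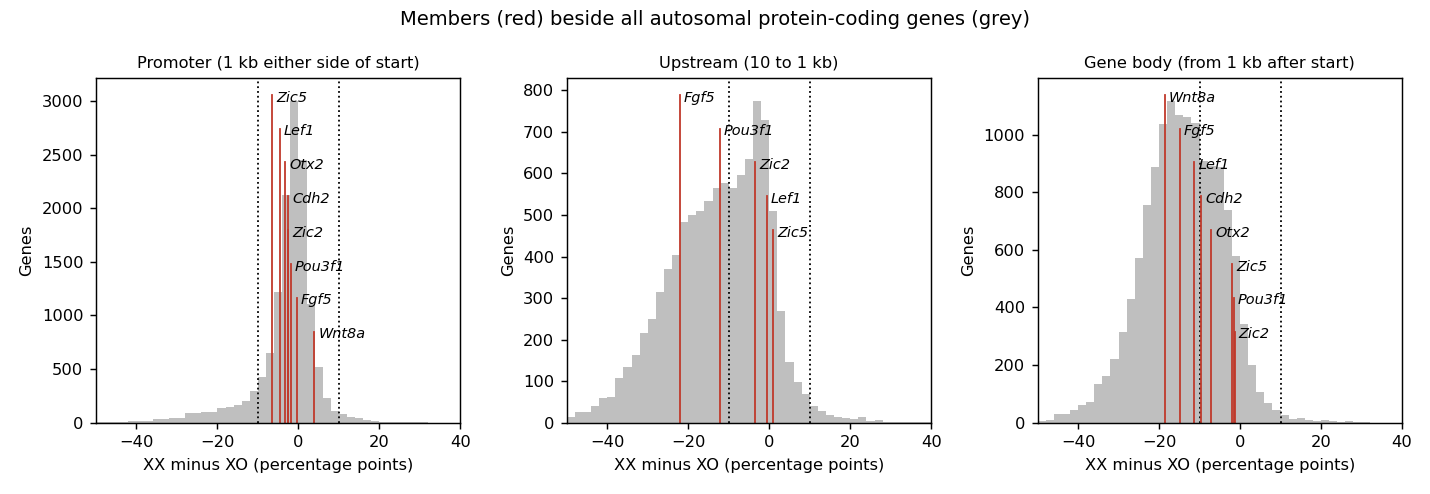
Distribution of XX minus XO (percentage points, x axis) over all autosomal protein-coding genes with at least 3 listed CpGs (grey, number of genes on the y axis; values beyond the axis ends are not drawn), with the members as red lines and dotted lines at 10 points either way. The members lie within 10 points of 0 at promoters and between -18.5 and -1.31 points at gene bodies.

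Single CpGs were also compared, over each gene and its 10 kb upstream together. Of the 1676 cytosines, 210 (12.5%) had an XX value at least 20 points below the XO value, against 22.4% of autosomal CpGs, and 51 (3.04%) were at least 20 points higher, against 3.69%. The member cytosines averaged 11.5% (XX) and 15.9% (XO), and all autosomal cytosines averaged 17.6% and 25.7%. Lef1 weighed most in the share of lower CpGs, which was 9.93% without it and between 12.3% and 13.5% without any other gene.

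The difference between the libraries moved with CpG density, counted as the number of reference CpGs within 100 bp either side of a cytosine, itself included. Of the member cytosines, 48.2% had at least 20 such CpGs, compared with 33.5% of autosomal cytosines. In this densest class the members averaged 6.92% (XX) and 7.73% (XO), and all autosomal CpGs averaged 5.43% and 6.26%. At member cytosines with 5 to 9 such CpGs the means were 20.7% and 30.4%, a difference of -9.69 points, beside -14.8 points for all autosomal CpGs of that class. In the sparsest class, with up to 4, the 77 member cytosines averaged 37.8% and 50.5%, a difference of -12.7 points beside -18.05 points. Pooled over the members, the gap thus widened towards sparse CpGs as it did over the genome. The members' gap was the smaller in both sparser classes, but the larger at 10 to 19 CpGs, where the differences were -5.86 and -4.71 points. Lef1 gave 177 of the 365 member cytosines with fewer than 10 such CpGs. Otx2 went the other way, with -2.59 points below 10 CpGs and -7.20 points from 10 upwards. So did Zic5, with 0.000734 and -1.78 points, whereas every other member followed the pooled direction.

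**Figure D3:**
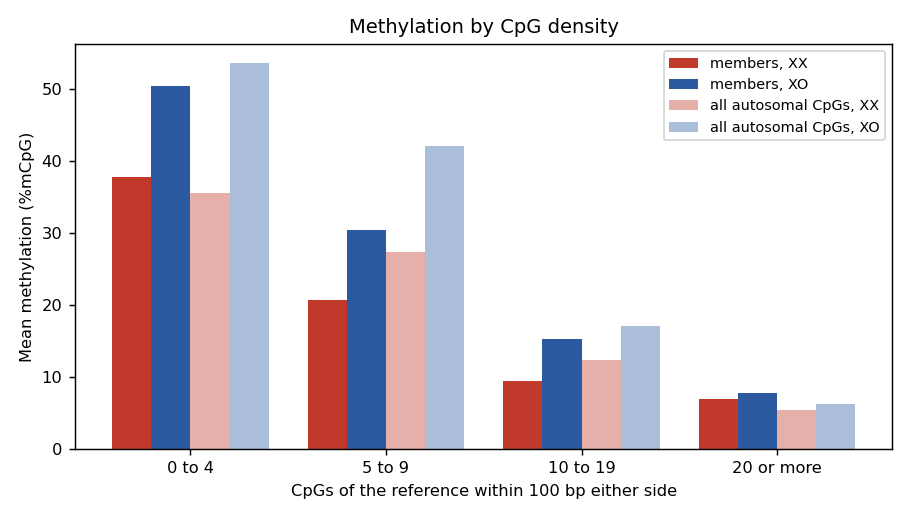
Mean methylation (%mCpG, y axis) by the number of reference CpGs within 100 bp either side (x axis), for member cytosines (full colours) and all autosomal cytosines (pale colours) in the XX (red) and XO (blue) libraries, without error bars. Methylation falls from 37.8% (XX) and 50.5% (XO) in the sparsest member class to 6.92% and 7.73% in the densest.

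Noise was read from CpGs listed on both strands, since the strands of a CpG are measured on separate reads of the same library. Over 440 such member CpGs, forward and reverse values lay apart by a median of 1.92 points (XX) and 3.45 points (XO), with SDs of 9.27 and 14.2 points. In XO cells the median was 0 points at Pou3f1 and at Cdh2, whose promoters held many cytosines at 0% in both libraries. The medians therefore do not give the noise at methylated runs.

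Fgf5 encodes a secreted fibroblast growth factor and is a widely used marker of the epiblast and of primed cells. It lies on chr5:98254184-98277030. At its promoter 101 cytosines averaged 6.48% ± 9.16 (XX) and 6.87% ± 9.67 (XO) (SD over CpGs, which is not replicate error). The 250 bases before the RefSeq start (chr5:98253934-98254183, forward strand, from the RefSeq promoter table, GRCm38.p6) show how densely this promoter was read. CpGs that held a value are in capitals, except the last base of the stretch, a listed cytosine whose G lies beyond it.

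Fgf5 promoter: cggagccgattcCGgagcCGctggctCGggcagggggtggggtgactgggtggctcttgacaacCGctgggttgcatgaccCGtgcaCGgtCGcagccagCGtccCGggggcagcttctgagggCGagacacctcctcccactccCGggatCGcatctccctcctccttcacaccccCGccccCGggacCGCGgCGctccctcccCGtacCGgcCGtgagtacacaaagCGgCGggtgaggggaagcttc

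Within this stretch the 35 listed cytosines averaged 2.35% (XX) and 3.11% (XO). It held 5 sites of CCGG, the sequence cut by MspI in RRBS, which reads the same on both strands and was found in 52.8% of 32851 RefSeq promoters of 300 bases. Over the whole Fgf5 promoter the forward strand gave -4.53 points and the reverse strand 2.80 points, so their signs differed. The body of Fgf5 averaged 22.97% ± 24.9 (XX) and 37.9% ± 33.3 (XO) over 22 cytosines, 17 of them lower in XX cells. Nearest to the start, 4 intronic cytosines at chr5:98256184-98256227 had 0% and 0.676%. Near the end of the gene, an intronic run of 9 cytosines at chr5:98274145-98274226 had 18.9% and 30.9%, and 4 cytosines in the coding exon at chr5:98275425-98275471 had 5.73% and 26.5%. The gap in the body was -5.98 points over 9 cytosines of the forward strand and -21.05 points over 13 of the reverse strand.

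Lef1 encodes an HMG-box transcription factor that binds β-catenin and switches on Wnt targets. It had the most listed cytosines of the set, with 427 over chr3:131110471-131224356 and the 10 kb before it. The promoter averaged 4.79% ± 11.9 (XX) and 9.40% ± 21.2 (XO) over 91 cytosines, of which 47 were lower and 14 higher in XX cells. Around the start itself, from chr3:131110309 to 131110556, 38 cytosines averaged 0.314% and 3.34%. The gene body averaged 24.3% ± 21.98 (XX) and 35.6% ± 28.5 (XO) over 259 cytosines, with 168 lower and 58 higher. Both strands gave a similar gap (-12.2 points forward and -10.2 points reverse).

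Neighbouring CpGs were joined into a run where no gap exceeded 200 bp, and Lef1 had 27 runs with at least 3 cytosines. XX values were lower in 24 of these, and 12 were lower by at least 10 points while 2 were higher by that much. Over 84965 such runs in all autosomal protein-coding genes and their 10 kb upstream, 82.1% were lower in XX cells, 53.9% were lower by at least 10 points and 3.18% were higher by at least 10 points. The run that fell furthest among those with at least 10 cytosines, and the 2 that were higher by at least 10 points, are printed below to show the sequence behind each direction, with the CpGs that have a value in capitals (GRCm38 reference, forward strand). The first is intronic, near the end of the gene (the first 300 bases of the run, chr3:131218183-131218482), and the other 2 lie upstream at chr3:131106661-131106738 and chr3:131107300-131107382. They were singled out after their values were seen.

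Lef1 intronic run: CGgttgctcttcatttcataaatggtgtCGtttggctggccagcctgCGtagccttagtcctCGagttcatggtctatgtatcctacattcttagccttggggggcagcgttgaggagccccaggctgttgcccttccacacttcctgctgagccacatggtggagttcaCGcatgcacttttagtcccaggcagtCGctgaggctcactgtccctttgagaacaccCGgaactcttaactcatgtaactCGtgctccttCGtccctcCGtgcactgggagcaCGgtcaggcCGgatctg

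Lef1 upstream run 1: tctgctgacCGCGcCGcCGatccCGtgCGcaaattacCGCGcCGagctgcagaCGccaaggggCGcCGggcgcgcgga

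Lef1 upstream run 2: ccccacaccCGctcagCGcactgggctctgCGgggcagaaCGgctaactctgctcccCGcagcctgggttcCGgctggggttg

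The whole intronic run, chr3:131218183-131218520, averaged 14.8% (XX) and 41.9% (XO), and all 21 of its cytosines were lower in XX cells. XX values there ranged from 0% to 53.8% and XO values from 10.5% to 100%. The difference was -21.5 points over 11 forward cytosines and -33.2 points over 10 reverse ones. Falls were also seen elsewhere in the introns. At chr3:131150884-131151079, 7 cytosines averaged 42.7% and 71.8%, and at chr3:131163391-131163440, 4 averaged 47.5% and 90.9%. A run of 4 at chr3:131166484-131166559 was nearly fully methylated in both libraries, with 92.9% and 96.9%. The CpG-dense part of the first intron, chr3:131112161-131112496, was nearly free of methylation, with 2.65% and 3.18% over 56 cytosines.

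Both upstream runs printed above were higher in XX cells. At the first, 12 cytosines averaged 63.2% (XX) and 51.4% (XO). At the second, 6 averaged 29.4% and 7.69%, with XX values from 23.5% to 41.2% and XO values from 0% to 15.4%. Every cytosine of both upstream runs was on the reverse strand, so no second strand was there to compare. Farther upstream, 13 cytosines at chr3:131102172-131102521 averaged 24.5% and 40.01%, lower in XX cells as in the introns. The upstream stretch thus held gaps of both signs, and its overall mean was nearly equal in the libraries.

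Otx2 encodes a homeodomain factor that drives the exit from the naive state and later patterns the forebrain. It lies on the reverse strand at chr14:48657677-48673819, and its annotated starts spread over several kb. At the most upstream start the promoter averaged 8.03% ± 13.02 (XX) and 11.2% ± 15.5 (XO) over 46 cytosines. The strands disagreed, with -12.9 points over 23 forward and 6.50 points over 23 reverse cytosines. No CpG was listed within 1 kb of the starts 6175 to 6311 bp further into the gene. In the body, 74 cytosines averaged 10.05% ± 14.7 and 17.1% ± 20.4. Along the locus, 9 of 9 runs with at least 3 cytosines were lower in XX cells, against 82.1% of all runs. Of these 9 runs, 2 were lower by at least 10 points, against 53.9% of all runs. Some were split by cytosine, such as chr14:48662444-48662655 with 5 lower and 5 higher. The highest mean along the locus was in an intronic run of 10 cytosines at chr14:48666034-48666251, with 38.3% in XX and 60.4% in XO cells. Its 6 forward cytosines differed by -43.6 points and its 4 reverse ones by 10.3 points. The coding exon run at chr14:48661366-48661442 was lower in 10 of 10 cytosines, with 3.05% and 12.2%. The intronic run is printed with 10 bases either side (chr14:48666024-48666261, reverse strand, GRCm38 reference), CpGs with a value in capitals.

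Otx2 intronic run: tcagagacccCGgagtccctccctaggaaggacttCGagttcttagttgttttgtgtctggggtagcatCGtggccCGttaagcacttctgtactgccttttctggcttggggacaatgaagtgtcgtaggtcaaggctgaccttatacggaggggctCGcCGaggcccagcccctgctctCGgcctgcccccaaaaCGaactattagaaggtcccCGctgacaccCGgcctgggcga

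Zic2 and Zic5 encode zinc finger factors of neural plate and neural crest development. They face away from each other on chromosome 14, with Zic5 on the reverse strand (chr14:122456795-122465677) and Zic2 on the forward strand (chr14:122475435-122479852), so the 10 kb upstream of each reaches the start of the other. The Zic2 promoter was the most densely read, with 208 cytosines, or 50.2% of the CpG cytosines of the reference there. It averaged 8.55% ± 16.3 (XX) and 11.01% ± 19.2 (XO). The Zic5 promoter averaged 3.82% ± 11.4 and 10.3% ± 18.3 over 63 cytosines, of which 38 were lower, 1 was higher and 24 were equal. Its gap was alike on both strands (-6.62 points forward and -6.41 points reverse). The gap varied with the window, at -11.8 points within 500 bp of the start and -3.37 points within 2 kb. The 6 cytosines in the 5′ UTR of Zic5 averaged 31.7% and 56.3% and stood above the rest of the promoter.

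Both gene bodies were low, with 5.03% ± 6.19 in XX and 6.35% ± 9.12 in XO cells at Zic2 and 10.05% ± 21.9 and 12.05% ± 22.1 at Zic5. At Zic5 an intronic run of 9 cytosines stood out, chr14:122462904-122463071, with 33.6% and 56.0%. The difference was -26.7 points over its 8 forward cytosines, and its 1 reverse cytosine was higher in XX cells. At Zic2 the 6 cytosines in the 3′ UTR averaged 5.88% and 19.5%. Between the genes both directions were seen. At chr14:122471606-122471759, 4 of 4 cytosines were lower in XX cells, with 24.3% and 33.9%. At chr14:122473941-122474091, within the noncoding gene 2610035F20Rik, 9 cytosines averaged 12.6% (XX) and 4.60% (XO), with 8 higher and 0 lower in XX cells and both strands higher (15.8 points forward and 4.15 points reverse). Nearer to Zic2, 65 cytosines at chr14:122474829-122475279 averaged 13.95% and 12.1%, with opposite signs on the strands. When CpGs within 1 kb of another protein-coding start were left out, the same cytosines remained upstream of both genes. Their difference was 2.80 points, which is therefore 1 value and not 2. This setting was chosen after the data were seen. The intronic run of Zic5 (chr14:122462894-122463081, reverse strand) and the run between the genes (chr14:122473931-122474101, forward strand) are printed as examples of either direction, from the GRCm38 reference with 10 bases either side and CpGs with a value in capitals.

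Zic5 intronic run: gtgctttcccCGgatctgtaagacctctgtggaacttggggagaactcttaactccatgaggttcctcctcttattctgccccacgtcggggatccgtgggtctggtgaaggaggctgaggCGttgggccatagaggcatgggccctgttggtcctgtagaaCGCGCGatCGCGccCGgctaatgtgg

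Zic2 and Zic5 shared upstream run: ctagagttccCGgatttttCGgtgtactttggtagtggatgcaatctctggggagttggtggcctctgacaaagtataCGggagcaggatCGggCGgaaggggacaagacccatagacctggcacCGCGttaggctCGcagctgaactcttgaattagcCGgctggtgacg

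Pou3f1 encodes the POU factor also called Oct6, an early marker of the primed epiblast and of neural progenitors. It is a single-exon gene at chr4:124656807-124660655, and nearly all of it is CpG-dense. Its promoter averaged 7.54% ± 11.8 (XX) and 9.39% ± 17.1 (XO) over 111 cytosines, and 53 of these were at 0% in both libraries. The body averaged 7.84% ± 11.2 and 9.36% ± 16.4 over 167 cytosines, of which 49 were lower and 65 higher in XX cells. The body was not uniform. From chr4:124658810 to 124659623, over the end of the coding sequence and the start of the 3′ UTR, 100 cytosines averaged 6.22% (XX) and 3.42% (XO). The strands disagreed here (-0.859 points forward, 6.62 points reverse). The last 21 cytosines, in the 3′ UTR at chr4:124659980-124660181, averaged 8.42% and 23.7%, with 14 lower and 4 higher. The mean gaps were -17.7 points forward and -13.01 points reverse. The forward gap rested on the cytosines at chr4:124660044, 124660069 and 124660073. At the first of these, XX and XO values were 8% and 84.6%, but 2.27% and 11.3% on the reverse strand of the same CpG.

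Cdh2 encodes N-cadherin, the adhesion molecule that replaces E-cadherin as cells leave the epiblast for the neural plate and mesoderm. The gene spans chr18:16588877-16809246 on the reverse strand. Its promoter averaged 6.65% ± 14.8 (XX) and 9.23% ± 19.9 (XO) over 146 cytosines, 71 of them at 0% in both libraries. A run of 150 cytosines across the start had 5.67% and 7.93%, whereas 7 cytosines just upstream (chr18:16809793-16809984) had 17.3% and 37.6%, from 3 forward cytosines that differed by -55.3 points and 4 reverse ones that differed by 6.05 points. Only 48 of 3352 CpG cytosines in the long gene body had a value. They averaged 14.3% ± 21.8 and 23.8% ± 25.8, with 34 lower and 7 higher. A coding exon run of 8 cytosines at chr18:16624728-16624793 had 7.27% and 24.8%. An intronic run of 3 at chr18:16713084-16713145 was higher in XX cells, with 66.7% and 38.5%, on the forward strand alone.

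Wnt8a encodes a Wnt ligand of the posterior epiblast and primitive streak, and it was the least covered gene, with 20 cytosines in all. At its promoter the 4 listed cytosines, all in the 5′ UTR, were 6.25%, 6.25%, 3.03% and 0% in XX cells but all 0% in XO cells, so the higher mean in XX rests on low values. In the body (chr18:34543314-34548273) 16 cytosines averaged 29.8% ± 24.6 and 48.4% ± 40.3, the largest fall of the 8 gene bodies. The widest gaps were in the coding exon. At 5 neighbouring cytosines from chr18:34547187 to 34547250, all on the forward strand, XO values were 100% throughout and XX values were 54.2%, 66.7%, 66.7%, 45.8% and 54.2%. The next 6 cytosines, from chr18:34547433 to 34547474, were between 8.33% and 12.5% in XX and between 4% and 20% in XO cells. At the last 3, on the reverse strand, XX values were 20%, 6.67% and 20% and XO values 23.5%, 35.3% and 47.1%.

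**Figure D4:**
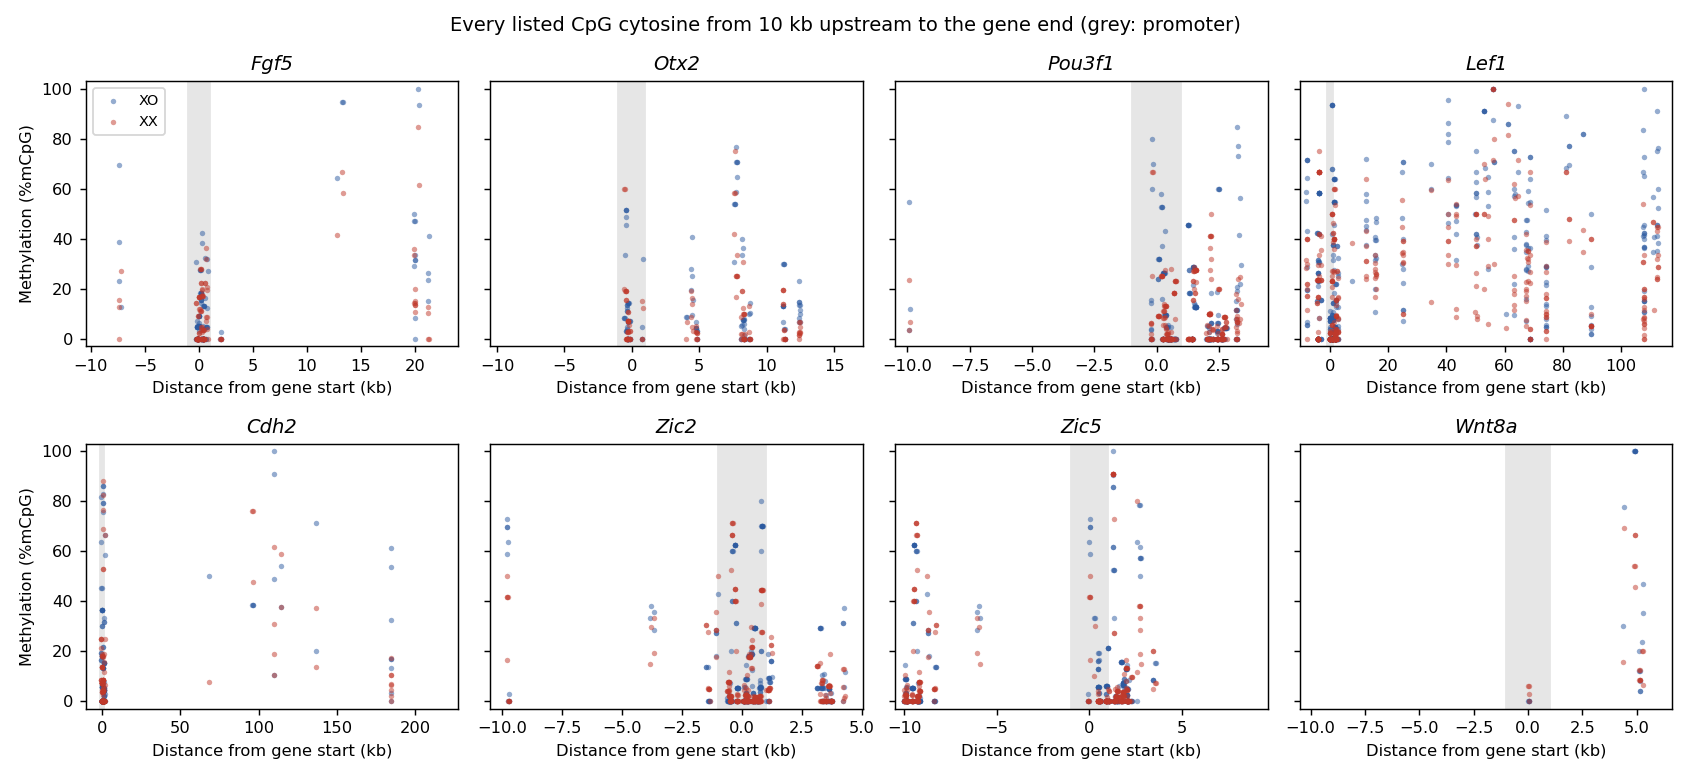
Methylation (%mCpG, y axis) of every listed CpG cytosine in the XX (red) and XO (blue) libraries against its distance from the gene start (kb, x axis, scaled to each gene), with the promoter in grey; each point is 1 cytosine in 1 library. Points crowd near 0% at the starts, and the high XO values, up to 100% at Fgf5, Lef1, Cdh2, Zic5 and Wnt8a, lie mostly away from them.

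Over all 8 loci, 66 separate runs held at least 3 cytosines. XX cells were lower in 56 and higher in 10, and the gap reached 10 points in 25 of the lower and 3 of the higher runs. Over all runs, 82.1% were lower, 53.9% by at least 10 points, and 3.18% were higher by at least 10 points. The 3 higher runs were the upstream pair at Lef1 and the intronic run of 3 cytosines at Cdh2, and each was read on 1 strand alone. By annotation, introns carried the most methylation, at 18.3% (XX) and 26.9% (XO) over 461 cytosines, of which 241 lay in Lef1. Coding exons (462 cytosines, 8.52% and 11.4%) and 5′ UTRs (341 cytosines, 7.00% and 9.12%) were lower in both libraries. The 91 cytosines of 3′ UTRs averaged 5.68% and 12.4%, and 81 of them lay in Pou3f1.

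The same regions were read for 40 other genes of primed pluripotency, early neural fate, Wnt signalling and cadherins, of which 38 are autosomal. The median difference over 35 promoters (at least 3 CpGs each) was -0.730 points. Of these promoters, 3 were lower and 2 higher by at least 10 points, against 11.7% and 1.99% of all promoters. Among those with at least 10 CpGs, the largest falls were at Fgf8, a growth factor of the streak and midbrain (10.7% in XX and 21.85% in XO cells), Otx1, the paralogue of Otx2 (9.10% and 18.3%), and Zic4 (34.0% and 42.4%). The largest rises were at Cdh11, a mesenchymal cadherin (34.0% and 7.68%), Grhl2, an epithelial transcription factor (32.2% and 19.9%), and Sox1, a neural plate factor (16.8% and 7.28%). Among promoters with at least 3 but fewer than 10 CpGs, Tdgf1 and Hesx1 fell further than Fgf8. Tdgf1 had 30.95% (XX) and 72.8% (XO) over 7 cytosines, and Hesx1 had 57.1% and 82.05% over 3. The gene bodies of the list had a median difference of -3.77 points over 34 genes. Of these, 7 were lower by at least 10 points, against 65.1% of all gene bodies. For 10 naive pluripotency promoters the median difference was -0.408 points, and for 14 naive gene bodies it was -5.64 points.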

How the data were processed

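RRBS libraries were made by the authors from FACS-sorted XX and XO Xmas mESCs, with 1 library per karyotype. The submitters' processing notes name bcl2fastq, Bismark and mm10. A coverage minimum is not given in the sources used here. The deposited table gives the percent of methylated reads for each CpG cytosine, with strands listed separately and no coverage. Read depth, intervals and floors therefore could not be given. Positions were compared with GRCm38, and all but 51 lay on a CpG.

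Region means were taken over listed cytosines with Python 3.11.15, numpy 2.4.6 and pandas 2.3.3, for GENCODE M21 protein-coding genes with at least 3 CpGs. Differences are XX minus XO in percentage points. A difference was counted at 10 points for regions and 20 points for single CpGs. SDs are over CpGs, and no p-values are given. Region means were tested on simulated data, only at promoters with at least 10 CpGs and at levels well above those of the members' promoters. The calls were not tested in this way. The members and lists were chosen with earlier results of these data known. The text names all members, and from the list of 40 related genes the 3 largest promoter falls and the 3 largest rises (at least 10 CpGs). Tdgf1 and Hesx1, with fewer CpGs, were named after their values were seen. RefSeq promoter sequences were matched for 4 members.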

Additional observations from a re-analysis of the deposited data

How the results depend on the processing

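No alternative had replicates to draw on, so a median was said to move when it changed by more than the standard error over the members, and a count or share when it changed by more than 1.5 times. Of 217 recalculated values of single members, 150 stayed within the standard error over their CpGs, and 19 changed sign, all of them members whose main difference was within 4 points of 0. The cause of a change was not tested except where the setting itself gives it.

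The promoter median difference was -4.53 points from forward and -0.684 points from reverse cytosines, -1.22 points with medians over CpGs, and 3.88 points over 5 genes with sparse CpGs only (fewer than 10 within 100 bp). The number of promoters lower by 10 points rose from 0 to 1 without CpGs at 0% or 100% in both libraries and with 500 bp either side (Zic5), on the forward strand (Otx2) and with sparse CpGs (Cdh2). It was 1 (Zic5) with a threshold of 5 points.

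The upstream median difference, -3.54 points, was 1.031 points on the forward strand, 1.26 points with medians over CpGs and 2.60 points from 5 kb upstream (2 genes). Leaving out 1 member gave -7.85 to -2.08 points, with the first value without Lef1 or without Zic5. The number of stretches lower by 10 points was 2. It was 0 without CCGG cytosines, on the reverse strand, with at least 10 CpGs and from 5 kb upstream. It was 1 with strands averaged, on the forward strand, with medians, with the stretch taken to the start, and with a threshold of 20 points, and leaving out 1 member gave 1 to 2.

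The gene body median was -3.61 points when the body began at the start. The number of gene bodies lower by 10 points, 3, became 5 at a threshold of 5 points and 0 at 20 points. The share of member CpGs lower in XX cells was 22.1% at 10 points and 6.62% at 30 points. Among sparse CpGs (fewer than 10 within 100 bp) it was 28.8% at 20 points. Over all autosomal CpGs that share was 46.5% in the class with up to 4 CpGs and 38.7% in the class with 5 to 9. Shares of all genes at 5 or 20 points, and of all autosomal CpGs at 10 or 30 points, were not calculated.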

Other observations

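The genes with the most similar methylation were sought among 2461 other autosomal protein-coding genes with at least 10 CpGs in the promoter, upstream stretch and gene body, by the distance between the 6 means of those regions in the XX and XO libraries. Of the members, 3 had enough CpGs. Zic2 was closest to Nkx2-3, a homeobox gene (distance 3.21 points), with promoter means of 9.74% in XX and 13.5% in XO cells and gene body means of 5.39% and 6.36%. Zic5 was closest to Gata6, a zinc finger factor of primitive endoderm (4.08 points), with promoter means of 3.62% and 12.5% and upstream means of 8.11% and 9.16%. Lef1 was closest to Prdm16 (5.38 points), with promoter means of 5.08% and 5.89% and gene body means of 24.45% and 37.4%. Likeness over 6 means from 2 libraries is a description of these libraries only.

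Cytosines within a CCGG site made up 21.2% of the member cytosines and 30.5% of all autosomal ones. Soft-masked repeats held 79 member cytosines (4.71%), against 9.76% of autosomal cytosines.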
